A study of Mus musculus with 12 samples.

Results

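The interleukin and IL-1 system genes comprised 10 transcripts, matched by GENCODE mouse symbol to 10 of the 54446 gene identifiers in the count tables. They were the agonists *Il1a*, *Il1b* and *Il18*, the antagonists *Il1rn*, *Il1r2* and *Il18bp*, the receptor subunit *Il1rap*, and the interleukins *Il6*, *Il15* and *Il16*. All 10 were counted in each of 12 libraries and passed the filter on low counts in every comparison.

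IL-1α and IL-1β are secreted agonists that bind the same signalling receptor, which then recruits the accessory chain encoded by *Il1rap* and activates NF-κB through MyD88. *Il1rn* encodes the receptor antagonist, which occupies that receptor without signalling, and *Il1r2* encodes a decoy receptor that lacks a signalling domain. IL-18 is a related agonist that IL-18 binding protein, the product of *Il18bp*, keeps from its receptor. *Il6* encodes a cytokine of the acute inflammatory response, *Il15* a cytokine that sustains NK cells and memory CD8+ T cells, and *Il16* a leukocyte chemoattractant released from a larger precursor. Myeloid cells are a main source of IL-1 in inflamed tissue and in tumors, and several transcripts of this kind carry AU-rich elements that shorten their life.

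The libraries came from a YTHDF2 RIP-seq experiment. YTHDF2 is a reader of N6-methyladenosine (m6A), a modification of mRNA, and promotes decay of the transcripts it holds. Myeloid cells positive for CD11b were obtained by sorting from MC38 tumors, grown from a mouse colon carcinoma line in WT mice, either unirradiated (Ctrl) or 3 days after a single local dose of 20 Gy (IR). Every pool gave an IP library, the RNA recovered with an antibody against YTHDF2, and an Input library from the same lysate before that step. Each condition had 3 pools, so that Ctrl Input, IR Input, Ctrl IP and IR IP held 3 libraries each. The mice were male and female, 8 to 10 weeks old, on the C57BL/6J background, and the methods define WT as *Ythdf2* fl/fl without Cre. Both conditions shared that floxed genotype and the MC38 tumor, and no library with the conditional deletion entered this set. Each pool combined cells from 5 mice, and the methods call the pools technical replicates, so p-values here measure only the spread between these pools. An IP with a control antibody was not analysed here.

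Gene counts per library ranged from 34445784 to 42382532 in the Inputs and from 27852948 to 33882664 in the IPs. Reads that fell on no gene made up 24.6% to 27.0% of uniquely aligned reads in the Inputs, 41.8% to 42.7% in the Ctrl IPs and 49.4% to 54.1% in the IR IPs. The labelled cell type was present: *Itgam*, which encodes CD11b, averaged 944 CPM ± 1.40 (SD, n = 3) over Ctrl Inputs against 1718 CPM ± 23.5 over IR Inputs. The 7 markers of the sorted type, *Itgam* among them, summed to 4376 to 4485 CPM in Ctrl and 5529.5 to 5601 CPM in IR (4 higher, 1 lower). Summed over 10 neutrophil markers the Inputs held 8364 to 8987 CPM in Ctrl and 11222 to 11741 CPM in IR, with 7 markers higher and 1 lower in IR. The 5 monocyte markers summed to 1560 to 1653 CPM in Ctrl and 1797 to 1918 CPM in IR (3 higher, 1 lower), and 6 dendritic cell markers to 224 to 228 CPM and 267 to 273 CPM (2 higher, 2 lower). The 7 macrophage markers summed to 232 to 239 CPM in Ctrl and 218 to 231 CPM in IR (4 higher, 3 lower). In the Inputs T cell markers summed to at most 3.07 CPM and NK cell markers to at most 0.591 CPM. B cell markers summed to 22.1 to 23.6 CPM in Ctrl and 32.0 to 35.3 CPM in IR, and fibroblast markers to 7.004 to 7.47 CPM and 8.43 to 12.9 CPM. Epithelial markers summed to 119 to 127 CPM and 90.9 to 96.9 CPM, most of it *Cdh1*, with the keratin gene *Krt19* at 0 in every Input. *Ythdf2* itself averaged 58.0 CPM ± 0.47 (SD, n = 3) over Ctrl Inputs against 51.5 CPM ± 3.81 over IR Inputs. Levels are given as CPM, counts scaled to the size of the library, with TMM factors from the 12 libraries together, whereas each fold change was fitted on the libraries of its own comparison. The 2 scales differ by a median over genes of 0.08 on the log2 scale for the Inputs and of -0.08 for IP/Input in Ctrl.

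The sequence GGACT is the most common form of the motif at which m6A is deposited, and it was counted in the longest coding transcript of each member. *Il1rn* held 0 copies, in this and in every other coding transcript annotated for it, whereas 92.3% of the coding genes tested in Ctrl held at least 1. *Il1rap* held 10 copies, *Il16* held 6, *Il1r2* held 4, *Il18bp* held 3, *Il1b*, *Il6* and *Il15* held 2 each, and *Il1a* and *Il18* held 1 each. Per kilobase, *Il1r2* (2.82), *Il1rap* (2.21), *Il1b* (1.47), *Il18bp* (1.16), *Il16* (1.14) and *Il18* (1.13) lay above the median of 1.05 over coding genes. Across genes, the Spearman correlation of log2 IP/Input with GGACT per kilobase was weak, at 0.095 in Ctrl and 0.069 in IR. The windows printed here, on the transcript strand with the motif in capitals, show the copies of both IL-1 agonists and of the decoy receptor, and examples from *Il1rap*, *Il16* and *Il6*, whose IP/Input values differed most. Coordinates are those of mm10. A match marks letters in the transcript, and methylation was not measured in these libraries.
Il1a, coding sequence, chr2:129300734-129300754, minus strand: tggcacggGGACTgccctcta
Il1b, 3′ UTR, chr2:129365006-129365026, minus strand: tatgggctGGACTgtttctaa
Il1b, 3′ UTR, chr2:129364928-129364948, minus strand: tctccaggGGACTccttagtc
Il1r2, coding sequence, chr1:40105401-40105421, plus strand: agtaaattGGACTcttctcag
Il1r2, coding sequence, chr1:40125146-40125166, plus strand: agacatatGGACTgaccaagc
Il1r2, coding sequence, chr1:40125162-40125182, plus strand: caagctacGGACTgacaacca
Il1r2, coding sequence, chr1:40125175-40125195, plus strand: gacaaccaGGACTtcccttcc
Il1rap, 3′ UTR, chr16:26715502-26715522, plus strand: gtaatcagGGACTaaatctgt
Il1rap, 3′ UTR, chr16:26717137-26717157, plus strand: ttccgcatGGACTtatgggaa
Il16, coding sequence, chr7:83652898-83652918, minus strand: gcacggatGGACTatagcttt
Il16, 3′ UTR, chr7:83643557-83643577, minus strand: tcccctagGGACTatgaaagc
Il6, coding sequence, chr5:30013394-30013414, plus strand: ccttcttgGGACTgatgctgg

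To set transcripts of different length side by side, Input levels were divided by the length of all annotated exons. The 2 IL-1 antagonists led the order in both conditions. In the Ctrl Inputs *Il1r2* was at 38.6 CPM per kb ± 1.60 (SD, n = 3), *Il1rn* at 29.8 ± 0.11 and *Il1b* at 10.6 ± 1.38, and no library of these members overlapped with the next in the order. Below them came *Il16* at 6.83 CPM per kb ± 0.43, *Il15* at 4.90 ± 0.35 and *Il1a* at 4.89 ± 0.46, the last 2 overlapping. The lowest were *Il18* (2.95 ± 0.42) and *Il18bp* (2.56 ± 0.30), which overlapped, and *Il6* (1.46 ± 0.56) and *Il1rap* (1.09 ± 0.066), which overlapped too. In the IR Inputs *Il1r2* (39.9 CPM per kb ± 2.88), *Il1rn* (33.8 ± 1.09) and *Il1b* (13.7 ± 0.51) kept the first 3 places. *Il15* (8.19 ± 0.26) then stood above *Il16* (6.06 ± 0.23), *Il1a* and *Il18* overlapped at 4.01 ± 0.40 and 4.01 ± 0.41, *Il18bp* was at 2.87 ± 0.18, and *Il6* (0.788 ± 0.19) overlapped with *Il1rap* (0.867 ± 0.053) at the bottom. The order of the antagonists rested on the length used: divided by the longest transcript, *Il1rn* was at 64.7 CPM per kb in the Ctrl Inputs and *Il1r2* at 51.9.

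**Figure D1:**
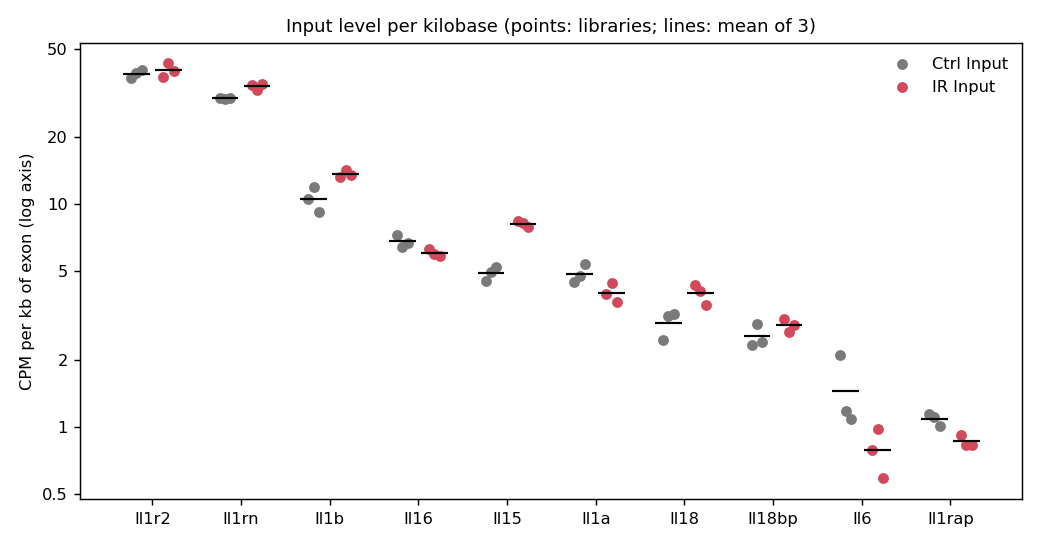
Input level of each member in CPM per kilobase of exon (log axis), with a point for each library, a line for the mean of 3, Ctrl in gray and IR in red. Il1r2 and Il1rn lie highest in both conditions, and Il6 and Il1rap lowest.

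The Inputs were compared to ask how transcript abundance in the sorted cells differed after IR. *Il1b*, *Il1rn* and *Il15* rose, whereas *Il1a*, *Il1rap*, *Il6* and *Il16* fell, and the other 3 members did not pass the threshold. Thus 3 of 10 members were higher and 4 lower, against 21.0% higher and 23.9% lower among the 16914 genes tested (edgeR, adjusted p under 0.05). The median log2 fold change was 0.03 over the members and 0.01 over all genes. The Ctrl and IR libraries of 8 members did not overlap, and 53.8% of all genes tested had no overlap. Fewer cells of a type and less RNA per cell cannot be told apart in bulk libraries, and the neutrophil and monocyte marker sums were higher in IR over the same comparison, with 7 of 10 and 3 of 5 markers called higher and 1 called lower in each list. Their part in these results was not tested.

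The agonists did not move together. *Il1b* (chr2:129364570-129371139, mm10) was at 20.2, 22.8 and 17.5 CPM in the Ctrl Inputs of replicates 1 to 3 and at 25.4, 27.3 and 25.8 CPM in the IR Inputs. Every IR library thus lay above every Ctrl library, and the log2 fold change was 0.30 ± 0.083 (SE, adjusted p = 0.0048, edgeR). *Il1a*, its neighbour on chromosome 2 (chr2:129299610-129309972), was at 8.89, 9.42 and 10.7 CPM in the Ctrl Inputs against 7.79, 8.76 and 7.18 CPM in the IR Inputs. Here every IR library lay below every Ctrl library, with a log2 fold change of -0.37 ± 0.12 (SE, adjusted p = 0.011, edgeR). The counts of *Il1b* divided by those of *Il1a* were accordingly 2.27, 2.42 and 1.65 in the Ctrl Inputs and 3.11 to 3.59 in the IR Inputs. *Il18* (chr9:50554827-50581840) was at 2.54 to 3.32 CPM in the Ctrl Inputs against 3.67 to 4.50 CPM in the IR Inputs. The libraries did not overlap, but the log2 fold change of 0.36 ± 0.18 (SE) did not pass the threshold (adjusted p = 0.10, edgeR). Fitted together with the IPs in all 12 libraries, neither *Il1a* nor *Il1b* passed the threshold, and the same was so for both without replicate 3. Exons of a gene on the opposite strand, *Gm14023*, overlap 11.25% of the exon bases of *Il1a*, and the strand setting of the HTSeq counting is not given in the sources used here.

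Of the antagonists, only *Il1rn* passed the threshold, and its change was small. *Il1rn* (chr2:24336853-24351494) was at 165, 165 and 166 CPM in the Ctrl Inputs against 190, 180 and 191 CPM in the IR Inputs. All 3 IR libraries were above all Ctrl libraries, and the log2 fold change was 0.10 ± 0.035 (SE, adjusted p = 0.021, edgeR). It lost the call with scaling by library size alone (adjusted p = 0.056, edgeR), without replicate 3 (adjusted p = 0.22) and in the fit of all 12 libraries. *Il1r2* (chr1:40074079-40125231) was at 70.4, 73.8 and 76.5 CPM in the Ctrl Inputs against 70.8, 81.8 and 76.0 CPM in the IR Inputs. These groups overlapped, with a log2 fold change of -0.03 ± 0.049 (SE, adjusted p = 0.66, edgeR). *Il18bp* (chr7:102014885-102018690) overlapped as well, at 7.12 to 8.78 CPM in Ctrl and 8.13 to 9.23 CPM in IR (log2 fold change 0.09 ± 0.12, adjusted p = 0.59, edgeR).

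*Il15* (chr8:82331632-82403222) was at 10.2, 11.2 and 11.8 CPM in the Ctrl Inputs against 18.9, 18.7 and 17.9 CPM in the IR Inputs. The groups were well apart, and the log2 fold change of 0.66 ± 0.089 (SE, adjusted p = 8.1e-07, edgeR) was the largest rise among the members. *Il6* (chr5:30013114-30019981) was at 5.12, 2.88 and 2.65 CPM in the Ctrl Inputs against 1.93, 2.38 and 1.44 CPM in the IR Inputs. It fell by 0.97 ± 0.25 on the log2 scale (SE, adjusted p = 0.0023, edgeR). The Ctrl Input of replicate 1 stood above the other 2, and without that library the log2 fold change was -0.61 (adjusted p = 0.057, edgeR). *Il1rap* (chr16:26581704-26730117) was at 13.01, 12.6 and 11.6 CPM in the Ctrl Inputs against 10.5, 9.51 and 9.49 CPM in the IR Inputs. All IR libraries were lower, and *Il1rap* fell by 0.41 ± 0.10 on the log2 scale (SE, adjusted p = 0.0017, edgeR). *Il16* (chr7:83642825-83745726) was at 57.4, 50.6 and 53.0 CPM in the Ctrl Inputs against 49.6, 47.3 and 46.0 CPM in the IR Inputs, without overlap (log2 fold change -0.25 ± 0.055, adjusted p = 4.4e-04, edgeR). In the fit of all 12 libraries *Il1rap* and *Il6* lost their calls, and *Il6* also lost its call without replicate 1 of both conditions (adjusted p = 0.083, edgeR). Exons of *Stard5* on the opposite strand overlap 15.3% of the exon bases of *Il16*.

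**Figure D2:**
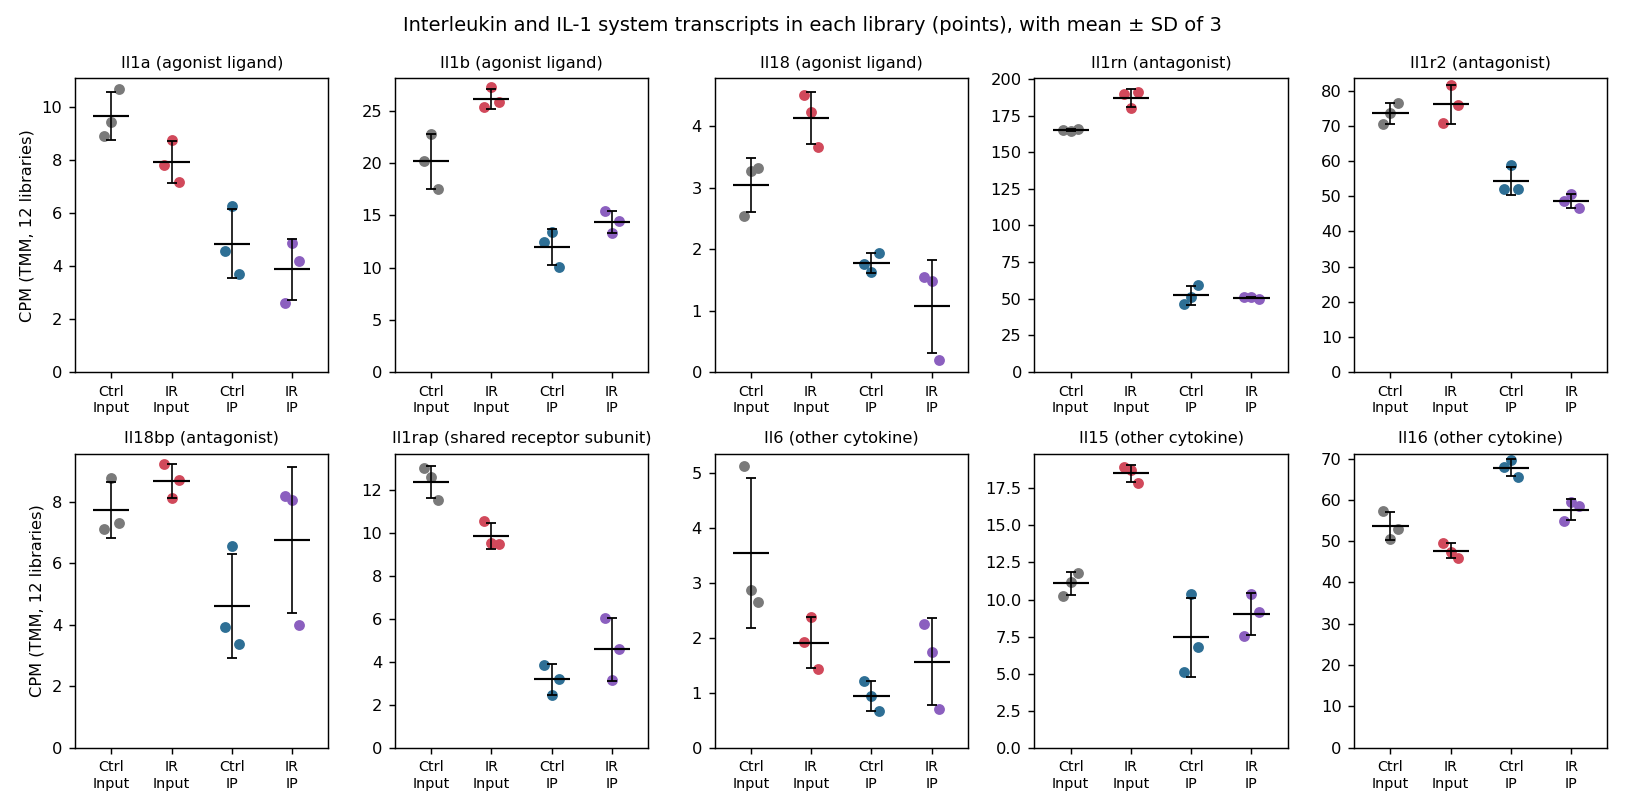
CPM of each member (1 panel each, linear axis from 0) in Ctrl Input, IR Input, Ctrl IP and IR IP, with a point for each of 3 libraries and a line and bar for mean ± SD. Il15 lies higher and Il6 lower in the IR Inputs, Il1rn lies far lower in the IPs than in the Inputs, and Il16 is the member whose IPs lie above its Inputs.

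IP was compared with Input within each condition to ask which transcripts were recovered with YTHDF2 beyond their abundance. *Il16* was higher in IP in both conditions, and the other members that passed the threshold were lower. In Ctrl, 1 of 10 members was higher and 9 were lower, against 34.1% higher and 34.6% lower among 17416 genes tested (edgeR, adjusted p under 0.05). In IR, 1 was higher, 7 were lower and 2, *Il18bp* and *Il6*, did not pass, against 32.1% higher and 30.4% lower among 18650 genes. The median log2 IP/Input of the members was -0.69 in Ctrl and -0.89 in IR, beside 0.02 and 0.10 over all genes tested. IP and Input libraries did not overlap for 9 members in Ctrl, all but *Il15*, against 73.1% of all genes, and for 8 members in IR, all but *Il18bp* and *Il6*, against 69.5%. TMM sets the typical gene near 0, so a lower IP/Input is lower relative to other transcripts and does not show that YTHDF2 holds none of a transcript.

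The 3 agonists lay below their Inputs in both conditions. *Il1b* was at 12.4, 13.4 and 10.02 CPM in the Ctrl IPs against 15.4, 13.3 and 14.4 CPM in the IR IPs, below every Input of its condition. Its log2 IP/Input was -0.68 ± 0.14 (SE, adjusted p = 2.8e-04, edgeR) in Ctrl and -0.80 ± 0.12 (SE, adjusted p = 1.7e-04) in IR. *Il1a* was at 4.57, 6.24 and 3.69 CPM in the Ctrl IPs against 2.61, 4.85 and 4.17 CPM in the IR IPs. These too lay below all Inputs, with a log2 IP/Input of -0.92 ± 0.20 (SE, adjusted p = 4.8e-04, edgeR) in Ctrl and -0.97 ± 0.27 (SE, adjusted p = 0.0084) in IR, where the call was lost without replicate 1 (adjusted p = 0.051). *Il18* had 55, 52 and 52 counts in the Ctrl IPs and 50, 49 and 6 in the IR IPs, so that replicate 3 of the IR IPs stood far below the other 2. Its log2 IP/Input was -0.70 ± 0.29 (SE, adjusted p = 0.038, edgeR) in Ctrl and -1.88 ± 0.58 (SE, adjusted p = 0.016) in IR. With IP and Input paired by replicate number as a block, *Il18* lost its call in Ctrl (adjusted p = 0.063, edgeR), as it did without any of the 3 replicates. It also lost it in IR without replicate 1 or without replicate 2.

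The antagonists were spread more widely. *Il1rn* was at 46.4, 51.2 and 59.2 CPM in the Ctrl IPs against 51.2, 50.9 and 50.1 CPM in the IR IPs, far below its Inputs of at least 165 CPM. Its log2 IP/Input was -1.59 ± 0.069 (SE, adjusted p = 1.0e-12, edgeR) in Ctrl and -1.83 ± 0.058 (SE, adjusted p = 6.0e-10) in IR. *Il1r2* was closer to its Inputs, at 51.9, 59.0 and 52.2 CPM in the Ctrl IPs against 48.8, 50.6 and 46.7 CPM in the IR IPs. No IP reached an Input, and the log2 IP/Input was -0.36 ± 0.068 (SE, adjusted p = 1.4e-04, edgeR) in Ctrl and -0.59 ± 0.079 (SE, adjusted p = 7.2e-05) in IR. *Il18bp* was at 3.93, 6.55 and 3.39 CPM in the Ctrl IPs against 8.18, 8.07 and 4.005 CPM in the IR IPs. In IR replicate 3 stood apart from the other 2, and the difference from Input did not pass the threshold (log2 IP/Input -0.30 ± 0.27, adjusted p = 0.35, edgeR). In Ctrl it was -0.66 ± 0.23 (adjusted p = 0.017, edgeR), a call that was lost without replicate 1 or without replicate 3.

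*Il1rap* and *Il6* were the members furthest below their Inputs in Ctrl, and both had less negative values in IR. *Il1rap* was at 3.87, 2.47 and 3.20 CPM in the Ctrl IPs against 6.06, 3.13 and 4.57 CPM in the IR IPs. Its log2 IP/Input was -1.89 ± 0.18 (SE, adjusted p = 6.5e-08, edgeR) in Ctrl and -1.04 ± 0.25 (SE, adjusted p = 0.0042) in IR. *Il6* had 38, 30 and 18 counts in the Ctrl IPs and 73, 58 and 21 in the IR IPs, or 1.22, 0.936 and 0.670 CPM and 2.25, 1.75 and 0.701 CPM. The IR libraries overlapped with their Inputs, which the Ctrl libraries did not. Accordingly the log2 IP/Input was -1.83 ± 0.36 (SE, adjusted p = 2.4e-04, edgeR) in Ctrl and -0.23 ± 0.51 (SE, adjusted p = 0.71) in IR.

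*Il15* and *Il16* differed in direction. *Il15* was at 5.12, 10.4 and 6.81 CPM in the Ctrl IPs against 7.57, 10.4 and 9.18 CPM in the IR IPs. In Ctrl replicate 2 reached into the range of the Inputs, and the log2 IP/Input of -0.50 ± 0.20 (SE, adjusted p = 0.040, edgeR) lost its call with DESeq2, with coding genes only, and without replicate 1 or 3. In IR it was -0.98 ± 0.16 (SE, adjusted p = 2.9e-04, edgeR). *Il16* was at 68.0, 69.7 and 65.6 CPM in the Ctrl IPs against 54.8, 59.5 and 58.6 CPM in the IR IPs, each above all Inputs of its condition. Its log2 IP/Input was 0.41 ± 0.067 (SE, adjusted p = 3.1e-05, edgeR) in Ctrl and 0.33 ± 0.078 (SE, adjusted p = 0.0035) in IR, the latter lost with no filter on low counts (adjusted p = 0.098).

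**Figure D3:**
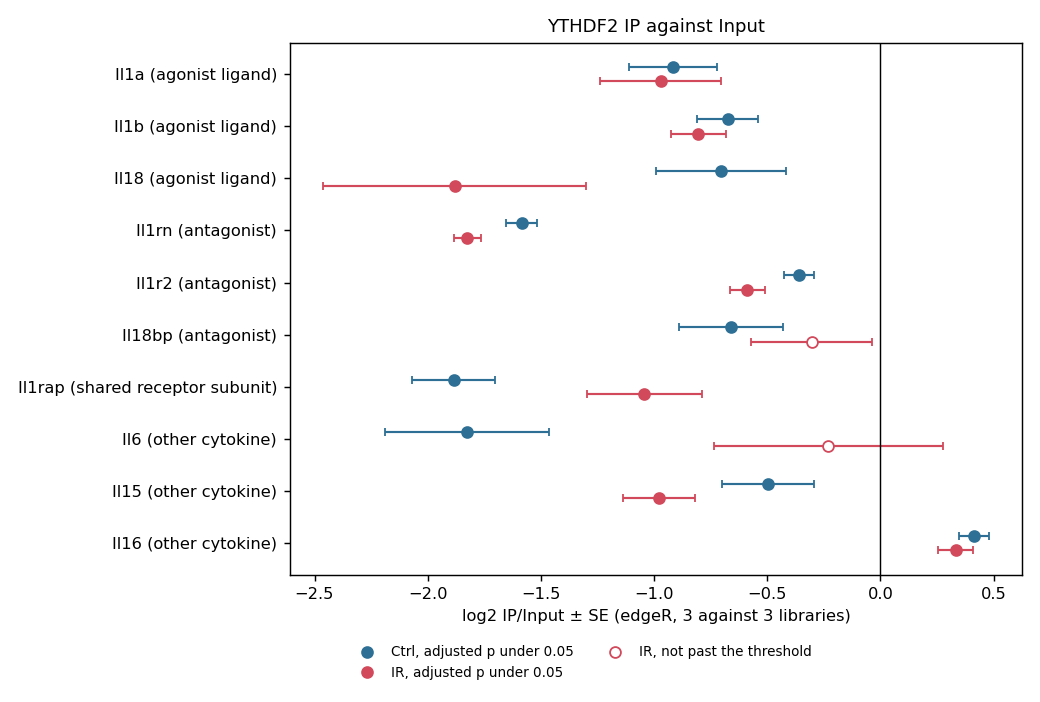
log2 IP/Input of each member ± SE from edgeR in Ctrl (blue) and IR (red), filled where the adjusted p was under 0.05 and open where it was not. Il16 lies right of 0 in both conditions and Il1rn well left of 0 in both. Il1rap and Il6 lie furthest left among the Ctrl values, and both lie further right in IR.

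The change of IP/Input with IR was tested as an interaction over all 12 libraries. With edgeR 0 of 10 members passed the threshold, and 3 had an unadjusted p under 0.05, beside 30.9% of all genes. DESeq2 called 2 members higher, *Il6* and *Il1rap*, beside 8.50% of all genes higher and 12.9% lower. Over 20720 genes, edgeR called 6.28% higher in IR and 13.9% lower. The median change was -0.08 both over the members and over all genes. Directions here rest on the scaling: 31.1% of the calls were higher with TMM and 76.5% with library size only, which moved the median of all genes up by 0.31 on the log2 scale.

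The largest values belonged to *Il6* and *Il1rap*. For *Il6* the log2 IP/Input per pool was -2.02, -1.56 and -1.90 in Ctrl and 0.21, -0.43 and -0.98 in IR. These pool values pair IP and Input by replicate number, a match that no source states. Fitted without that pairing, the interaction was 1.62 ± 0.62 (SE, adjusted p = 0.076, edgeR). For *Il1rap* the pools were at -1.73, -2.32 and -1.83 in Ctrl and at -0.79, -1.58 and -1.04 in IR. The interaction of *Il1rap* was 0.86 ± 0.32 (SE, adjusted p = 0.062, edgeR). Both passed the threshold with library size only, with at least 10 counts in every library and without replicate 3 of the IR IPs, with values from 0.93 to 2.04. The choice to leave out that library was made after seeing the data. Neither passed with DESeq2's size factors in edgeR, with no filter, with the replicate block or with any replicate number left out of all groups. With coding genes only, *Il1rap* passed and *Il6* did not. For both, the Input fell with IR while the IP values did not pass the threshold, at 0.74 ± 0.68 (SE, adjusted p = 0.53, edgeR) for *Il6* and 0.54 ± 0.36 (SE, adjusted p = 0.36) for *Il1rap*.

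The IL-1 agonists had interactions of -0.03 ± 0.33 (SE, *Il1a*, adjusted p = 0.98, edgeR) and -0.11 ± 0.19 (*Il1b*, adjusted p = 0.77). *Il18* was at -1.15 ± 0.63 (adjusted p = 0.23, edgeR), and its pool values in IR, -1.51, -1.48 and -3.85, rest at the low end on the library with 6 counts. Without that library the interaction of *Il18* was -0.60 and that of *Il18bp* 0.71, and without replicate 3 of all groups that of *Il1rn* was -0.073, none of them past the threshold. For *Il1rn* the pools were at -1.83, -1.68 and -1.49 in Ctrl and -1.89, -1.82 and -1.93 in IR, which overlapped, with an interaction of -0.22 ± 0.097 (SE, adjusted p = 0.13, edgeR). *Il1r2* was at -0.21 ± 0.11 (adjusted p = 0.20, edgeR) and *Il18bp* at 0.38 ± 0.37 (adjusted p = 0.55). *Il15* was at -0.46 ± 0.28 (adjusted p = 0.30, edgeR) and *Il16* at -0.06 ± 0.10 (adjusted p = 0.76). With library size only, *Il1a*, *Il1b*, *Il1rn*, *Il1r2* and *Il16* had interactions above 0, none of them past the threshold.

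In the IPs alone, IR against Ctrl gave 0 called members with edgeR, whereas 6.12% of 19255 genes were called higher and 9.85% lower. DESeq2 called 0 members too, beside 9.15% of all genes higher and 10.6% lower. At an unadjusted p under 0.05 (edgeR) there was 1 member, beside 28.8% of all genes. *Il16* came nearest, at -0.22 ± 0.089 (SE, adjusted p = 0.11, edgeR), with every IR IP below every Ctrl IP. Ctrl and IR libraries did not overlap for 3 members, *Il18*, *Il1r2* and *Il16*, against 34.0% of all genes. The standard errors of the other members in this comparison ran from 0.099 (*Il1r2*) to 0.71 (*Il18*), and differences near this size were not detectable at this spread. Scaled by library size only, 76.3% of the calls over all genes were higher, against 38.3% with TMM.

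**Figure D4:**
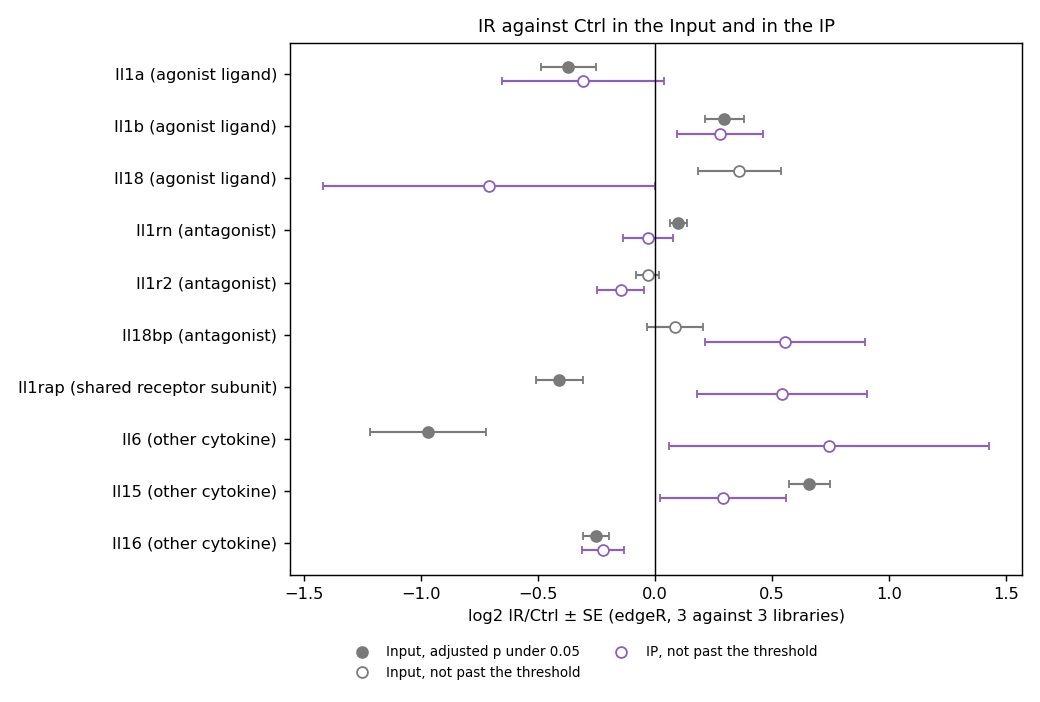
log2 IR/Ctrl of each member ± SE from edgeR in the Input (gray) and in the IP (purple), filled where the adjusted p was under 0.05. In the Input 7 members are filled, Il15 furthest right and Il6 furthest left. In the IP all 10 are open.

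Antagonist and agonist were also compared within each library, as ratios of counts not divided by length. *Il1rn* counts were 8.19, 7.21 and 9.44 times those of *Il1b* in the Ctrl Inputs and 7.48, 6.61 and 7.40 times in the IR Inputs, which overlapped. In the IPs the same ratio was lower, at 3.73, 3.82 and 5.91 in Ctrl and 3.32, 3.81 and 3.48 in IR, and no IP reached an Input. Against *Il1a* the ratio of *Il1rn* was 18.6, 17.5 and 15.5 in the Ctrl Inputs and 24.4, 20.6 and 26.6 in the IR Inputs, with no overlap. In the IPs it was 10.1, 8.21 and 16.1 in Ctrl and 19.6, 10.5 and 12.02 in IR, with overlap. *Il18bp* counts were 2.80, 2.69 and 2.21 times those of *Il18* in the Ctrl Inputs and 2.05, 1.92 and 2.37 times in the IR Inputs. In the IR IPs they were 5.32, 5.47 and 20 times, the last from the library with 6 counts of *Il18*, and in the Ctrl IPs 2.24, 4.04 and 1.75 times.

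IP/Input was higher for longer transcripts over all coding genes, so the members were set beside genes of like length, in 10 bins of equal gene number. Across genes, which are not independent replicates, the Spearman correlation of log2 IP/Input with the longest coding transcript was 0.253 over 13032 genes in Ctrl and 0.369 over 13795 genes in IR. From the shortest to the longest bin the median went from -0.95 to 0.39 in Ctrl and from -1.04 to 0.75 in IR. *Il18* (885 bases), *Il1b* (1356), *Il1r2* (1419), *Il15* (1908), *Il1a* (1974), *Il18bp* (2596) and *Il16* (5260) lay between the quartiles of their own bin in both conditions. In IR *Il18* was only just so, at -1.881 beside a lower quartile of -1.883, a value that includes the library with 6 counts. *Il1rn* (2474 bases) lay below the lower quartile of its bin, which was -0.85 in Ctrl and -0.90 in IR. *Il1rap* (4520 bases) lay below a lower quartile of -0.64 in Ctrl and -0.47 in IR, and *Il6* (2343 bases) lay below that of its bin in Ctrl and inside the quartiles in IR. The core AU-rich pentamer ATTTA occurred 10 times in *Il6* and 9 times in *Il1rap*, beside a median of 2 over coding genes. *Il1b* and *Il16* held 4 copies each, *Il1a* held 3, and *Il1rn* held 0. Copies in the 3′ UTR numbered 10 in *Il6*, 8 in *Il1rap*, 4 in *Il1b*, 3 in *Il1a* and 0 in *Il16*.

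**Figure D5:**
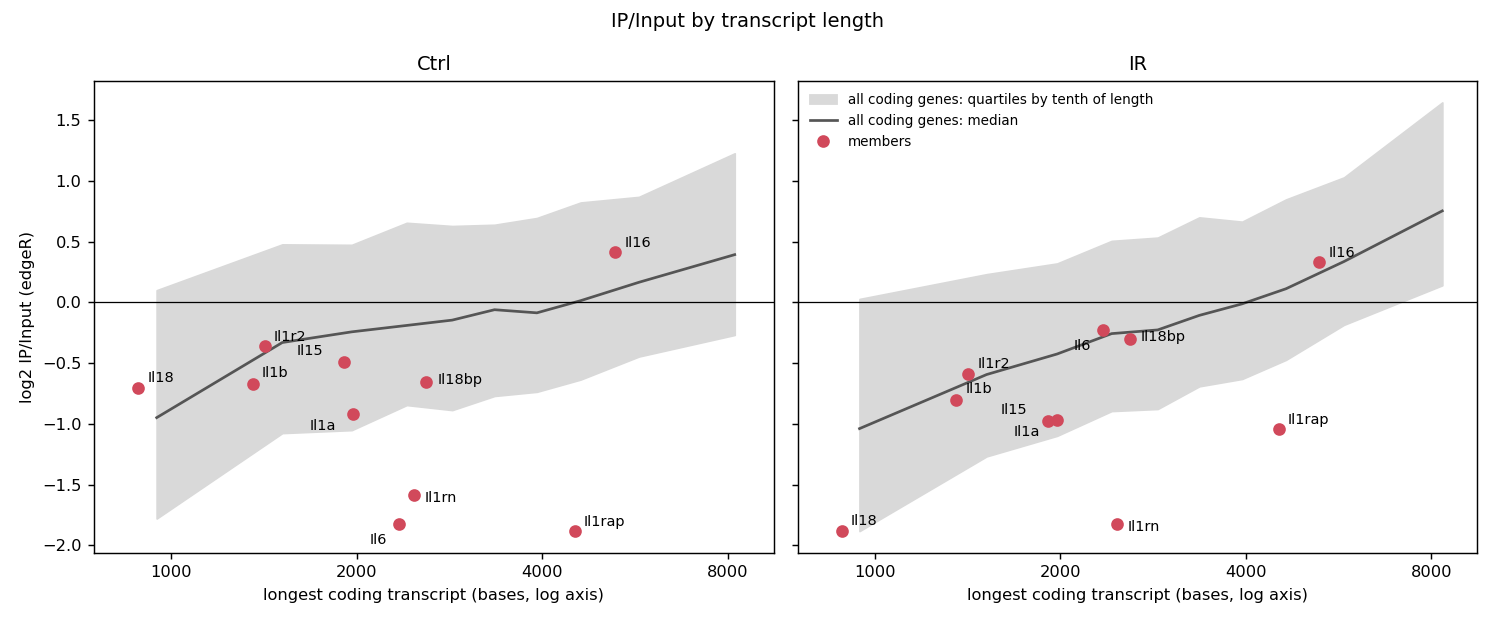
log2 IP/Input from edgeR against length of the longest coding transcript in bases (log axis) in Ctrl (left) and IR (right), with members as red points, the median by length bin as a line and the quartiles as a gray band. Il1rn and Il1rap lie below the band in both conditions, and Il6 in Ctrl. Il18, at 885 bases, lies left of the start of the band, and the other members lie inside it.

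For 4 IL-1 members the coding genes with the most similar level over the 12 libraries were listed, by Pearson r of log2 CPM among 10576 genes. The values are a description over libraries of 2 fractions, so genes that are lower in IP all resemble each other. *Il1rn* was most like *Sec61g* (0.999), *Golga7* (0.998) and *Tapbp* (0.998). *Il1r2* was most like *Rbm43* (0.985), *Ube2k* (0.984) and *Dld* (0.982). *Il1a* was nearest to *Slc25a13* (0.986), *Nek4* (0.981) and *Isg20l2* (0.978), and *Il1b* to *Vps41* (0.983), *Rpl22l1* (0.972) and *Slc52a3* (0.971).

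The members were then placed among other genes of the pathway. Of 11 receptors and receptor chains, 10 were tested in each condition. In Ctrl, 5 were higher in IP and 3 lower, against 34.1% and 34.6% of all genes, and in IR 3 were higher and 4 lower, near the 32.1% and 30.4% of all genes (edgeR). *Il6ra*, the ligand-binding chain of the IL-6 receptor, was at 108 CPM ± 3.11 (SD, n = 3) in Ctrl Input and 639 CPM ± 10.5 in the Ctrl IPs, and its log2 IP/Input was 2.65 ± 0.040 (SE, adjusted p = 1.4e-18, edgeR). In IR this was 1.86 ± 0.051 (SE, adjusted p = 2.0e-10, edgeR). *Il6ra* was thus high in IP in the same libraries in which its ligand *Il6* was low or did not differ. *Il1rl1*, the receptor of IL-33, was at 2.27 ± 0.056 in Ctrl and 1.75 ± 0.095 in IR on the same scale, whereas *Il1rl2*, the receptor of IL-36 cytokines, was lower in IP, at -0.72 ± 0.091 and -0.89 ± 0.12 (all called by edgeR). *Sigirr*, an inhibitory receptor of the family, was lower in IP in IR, at -1.02 ± 0.20 (adjusted p = 0.0010, edgeR).

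Of 14 signalling genes between the IL-1 receptor and NF-κB, 8 were higher and 5 lower in IP in Ctrl (34.1% and 34.6% of all genes), and 6 were higher and 6 lower in IR (32.1% and 30.4% of all genes). *Tab1*, which encodes an activator of the kinase TAK1, was highest among those with at least 100 counts, at a log2 IP/Input of 2.102 ± 0.053 (SE) in Ctrl and 1.49 ± 0.066 in IR. The adaptor *Myd88* was lower in IP in both conditions, at -0.62 ± 0.043 (SE, adjusted p = 6.4e-10, edgeR) in Ctrl and -1.16 ± 0.048 (SE, adjusted p = 4.7e-09) in IR. *Tollip*, an inhibitor of the pathway, was lower in both as well, at -0.72 ± 0.086 in Ctrl and -0.75 ± 0.13 in IR. In the Input 4 signalling genes rose with IR and 3 fell, beside 21.0% and 23.9% of all genes. *Nfkbia*, the inhibitor of NF-κB that NF-κB itself induces, rose by 0.29 ± 0.031 on the log2 scale (SE, adjusted p = 1.1e-08, edgeR). *Myd88* was higher too, at 0.24 ± 0.033, as were *Irak4* and *Tab2*. Those lower were *Tab3* at -0.28 ± 0.11, *Traf6* at -0.17 ± 0.055 and *Irak3* at -0.13 ± 0.047 (SE, edgeR).

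Of 10 genes for maturation and release of IL-1 and IL-18, 7 were lower and 2 higher in IP in Ctrl (34.6% and 34.1% of all genes), and 8 were lower and 0 higher in IR (30.4% and 32.1% of all genes). The neutrophil serine proteases *Ctsg* and *Prtn3*, which can process IL-1 cytokines, were at -2.18 ± 0.086 and -2.05 ± 0.051 in Ctrl and at -2.60 ± 0.15 and -2.44 ± 0.078 in IR (log2 IP/Input ± SE, edgeR). In the Input 3 genes of this list rose and 4 fell, beside 21.0% and 23.9% of all genes. *Pycard*, the inflammasome adaptor, rose from 123 CPM ± 3.69 to 224 CPM ± 3.03 (SD, n = 3), a log2 fold change of 0.78 ± 0.035 (SE, adjusted p = 6.5e-16, edgeR). *Gsdmd*, the pore former through which IL-1β leaves cells, rose by 0.42 ± 0.032, while *Ctsg* fell by 1.32 ± 0.056 and *Elane* fell by 0.99 ± 0.041 (SE, edgeR). The other genes called were *Casp4*, higher at 0.31 ± 0.070, and *Prtn3* and *Nlrp3*, lower at -0.94 ± 0.035 and -0.12 ± 0.037 (SE, edgeR). *Casp1* was among those not called. In the same IR Inputs *Il1b* was higher and *Il1a* lower, and both lost their calls in the fit of all 12 libraries and without replicate 3.

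Other interleukins were mostly near the floor of detection, and of 23 listed 9 were tested in Ctrl and 8 in IR. In Ctrl 4 were higher in IP and 1 lower, beside 34.1% and 34.6% of all genes, and with library size only 3 were higher and 1 lower. In IR 3 were higher and 0 lower, beside 32.1% and 30.4% of all genes. *Ebi3* and *Il27*, the 2 chains of IL-27, were at 0.69 ± 0.079 and 1.57 ± 0.26 in Ctrl (log2 IP/Input ± SE, edgeR). In IR neither passed the threshold, at -0.12 ± 0.099 (adjusted p = 0.30, edgeR) and 0.15 ± 0.30 (adjusted p = 0.68). Both rose in the Input with IR, by 0.34 ± 0.062 and 0.52 ± 0.21 on the log2 scale. *Il27* lost this call with library size only (0.50, adjusted p = 0.052, edgeR). Of 6 other IL-1 family ligands, 2 were tested in Ctrl, 1 higher in IP and 1 lower, beside 34.1% and 34.6% of all genes. The higher was *Il1f5*, with a mean below 100 counts, which was not among the genes tested for IP/Input in IR. *Il1f9*, the older symbol of the gene for IL-36γ, was lower in IP, at -1.19 ± 0.14 in Ctrl and -1.10 ± 0.15 in IR (log2 IP/Input ± SE, edgeR), in the direction of *Il1a* and *Il1b*.

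In the interaction 0 receptors were higher in IR and 6 of 11 lower, 0 signalling genes higher and 7 of 14 lower, 0 processing genes higher and 6 of 10 lower, and 0 other interleukins higher and 2 of 9 lower (edgeR). The share of all genes called lower was 13.9%. Scaled by library size only, those lower counts fell to 1, 2, 2 and 1, and 1 receptor, 1 signalling gene and 1 processing gene were called higher. Of all genes, 4.23% were lower and 13.8% higher with that scaling. In the IPs alone, 3 receptors, 4 signalling genes, 4 processing genes and 1 other interleukin were lower in IR, beside 9.85% of all genes, and 1 processing gene, *Pycard*, was higher (log2 0.53 ± 0.10, adjusted p = 0.0018, edgeR). With library size only, 2 receptors, 1 signalling gene, 3 processing genes and 0 other interleukins were lower, and 2 signalling and 2 processing genes were higher. Of all genes, 4.30% were then lower and 13.8% higher. *Il6ra* was among the receptors that fell, at -0.44 ± 0.049 (SE, adjusted p = 9.6e-06, edgeR), as was *Il1rl1*, at -0.50 ± 0.087 (adjusted p = 7.6e-04). With library size only they were at -0.23 and -0.30, and both kept the call.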

How the data were processed

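RIP-seq counts of 12 libraries were used. The authors, after trimming by Trimmomatic 0.39 and HISAT alignment to mm10 (GENCODE M19), deposited HTSeq counts, whole numbers per gene without normalization. HISAT was run with a strand setting, but that of the HTSeq counting, and any removal of duplicates, are not given in the sources used here. The antibody is from Aviva per the methods and from Abcam per the labels, and the former name a total RNA kit where the latter name mRNA isolation. Lines of uncounted reads were kept out of library sizes.

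Symbols and coordinates came from GENCODE M21 of the same build, and 99.9% of identifiers matched. The filter kept genes that reached 10 counts in 3 or more libraries of the comparison. These were tested by edgeR 4.0.16 (R 4.3.3, quasi-likelihood, TMM), with Benjamini-Hochberg adjustment over all genes tested and a threshold of 0.05. DESeq2 1.42.0, the tool of the study's methods, was an alternative. SE was derived from the fold change and the F statistic. Values per pool used a prior count of 2. TMM takes most genes as unchanged. The SE and p-values include the spread between libraries as well as counting error. Copies of 1 molecule cannot be told apart in the counts. The scripts were tested on simulated data.

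The methods draw each Input from the lysate of its IP, and same replicate numbers in the labels were taken to mark 1 lysate, which no source states. Their deviations from group means correlated at -0.019 to 0.015 across genes, so the fit with the replicate as a block was an alternative. Ctrl and IR pools of the same number held different mice. Named genes were all members and, in each pathway list and comparison, up to 2 genes per direction with the largest change among those called with a mean of at least 100 counts, and *Ythdf2*. The members and lists were chosen with earlier results of these data known. Alternatives were other scalings, filters, all 12 libraries in one fit, the block, coding genes only, and replicates left out.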

Additional observations from a re-analysis of the deposited data

Results flagged for a closer look

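The interaction test of edgeR called a difference between the IP/Input of IR and that of Ctrl for 0 of the 10 members. It called 6 of 11 receptors, 7 of 14 signalling genes, 6 of 10 processing genes and 2 of 9 other interleukins, all lower in IR. Of all genes tested, 13.9% were called lower and 6.28% higher. Of the called genes of these lists, the 14 that the rule for named genes gives are listed here. Among receptors, *Il6ra* was at -0.77, *Sigirr* at -0.85, *Il1rl1* at -0.50 and *Il2rg* at -0.47 on the log2 scale. Among signalling genes, *Tab1* was at -0.59, *Myd88* at -0.51 and *Nfkbia* at -0.45. Among genes for maturation and release, *Casp4* was at -0.86, *Gsdmd* at -0.59, *Elane* at -0.39, *Prtn3* at -0.37 and *Pycard* at -0.34. The IL-27 chains *Il27* and *Ebi3* were at -1.39 and -0.79. With DESeq2's size factors in edgeR all 14 stayed below 0 and 13 kept the call. With library size only all 14 stayed below 0 and 6 kept it. Over all genes, 76.5% of the calls were higher with that scaling, against 31.1% with TMM.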

How the results depend on the processing

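Over 12 alternatives per comparison, 533 of 597 values of single members kept direction and call, 28 lost a call, 10 gained one and 26 changed sign, 0 of these with a call in either fit. The cause of each change was not tested. The libraries left out alone, replicate 3 of the IR IPs and replicate 1 of the Ctrl Inputs, were chosen after seeing the data. Depth limits *Il6* and *Il18* most. IP and Input numbers correlated highest with their own number in 2 of 6 libraries. The replicate block changed only the call of *Il18* in Ctrl, which left 8 members lower.

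Sign changes of the interaction were, for *Il1a*, 0.28 with library size only, 0.027 with DESeq2 or its size factors, 0.079 with at least 10 counts in every library and 0.047 with coding genes only. For *Il16* they were 0.25 with library size only, 0.051 with the filter on every library and 0.019 with coding genes only. For *Il1b* they were 0.20 and 0.0051 with library size only and the filter on every library, and with library size only *Il1rn* was at 0.10 and *Il1r2* at 0.11. In the Input *Il1r2* was at 0.020 with all 12 libraries fitted. In the IP *Il1rn* was at 0.18 and *Il1r2* at 0.059 with library size only, and *Il1rn* at 0.022 with the filter on every library.

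With replicates left out, IR IP/Input ran from -0.43 to 0.043 for *Il18bp* and -0.51 to 0.20 for *Il6*, the interaction from -0.36 to 0.22 for *Il1a* and -0.11 to 0.0024 for *Il16*, the Input from -0.013 to 0.23 for *Il18bp*, and the IP from -0.093 to 0.091 for *Il1rn*. Members higher in the interaction ran from 0 to 2 and in the Input from 1 to 3. Otherwise 2 were higher in the interaction with library size only, DESeq2 or the filter on every library, and 1 with coding genes only. No filter left 0 higher in IR IP/Input. All 12 libraries in one fit left 1 higher and 1 lower in the Input and gave 1 lower in the IP.

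Divided by the longest transcript, Input levels in Ctrl and IR were 14.9 and 19.3 CPM per kb for *Il1b*, 3.44 and 4.67 for *Il18*, 64.7 and 73.2 for *Il1rn*, 51.9 and 53.7 for *Il1r2*, 2.98 and 3.34 for *Il18bp*, 2.74 and 2.18 for *Il1rap*, 5.81 and 9.70 for *Il15*, and 10.2 and 9.05 for *Il16*. With library size only *Il1rn* was at 30.4 in Ctrl, and in IR *Il1b* was at 13.05, *Il1rn* at 32.1, *Il15* at 7.79 and *Il16* at 5.76.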
